A study of Mus musculus with 22 samples.

Results

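The kinesin genes of the mouse anterior cingulate cortex (ACC) were taken as every row of the deposited gene table whose name is Kif followed by a digit and that had at least 10 counts in at least 10 of the 22 mice. Of 41 rows with such a name, 33 met the minimum, among 17524 genes that did so and 37786 genes listed. All mice were adult male wildtype C57BL/6J animals that received AAV5-CaMKIIa-ChR2(H134R)-EYFP, a light-gated cation channel under a promoter active mainly in excitatory neurons, in the basolateral amygdala (BLA) of both hemispheres, and an optic fibre cannula over the ACC of 1 hemisphere. The stim group (10 mice) received 9 sessions of light that activated BLA axons in the ACC, and the ctrl group (12 mice) underwent the same surgery and sessions with the light off, so every control also carried the channel, the cannula and single housing. The ACC of both hemispheres was taken days after the last session, so the tissue held the side without a fibre as well. Bulk RNA was amplified from a few nanograms and sequenced, and the value per gene and mouse was a count of uniquely aligned reads, with total counts between 23090483 and 43668462 per mouse. The comparison asks whether repeated activation of the BLA-ACC pathway went with a different level of kinesin transcripts. A pair of controls, ctrl 9 and ctrl 11, stood apart from the other mice by their oligodendrocyte markers, and results that rest on them are also given without them.

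Kinesins are motor proteins that walk along microtubules, mostly toward the plus end, by splitting ATP in a conserved motor domain. In neurons they carry mitochondria, synaptic vesicle precursors and receptors from the cell body into axons and dendrites, and in dividing cells a further set builds the spindle. Others act in cilia or change the growth of microtubule ends. Levels are given below as CPM (a gene's count as a share of its library), scaled between libraries by trimmed means (TMM), and levels of different genes were compared only as CPM per kilobase of exon.

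The ATP-binding loop (P-loop, or Walker A motif) shows what the rule captured, since a gene named Kif need not encode a motor. The motif was searched by name in the translated frame of the longest complete coding sequence of each gene, and it was found in 32 of 33 genes. It also stood in 5.52% of the coding sequences of all genes tested, so it is no mark of kinesins alone. The 1 gene without it was Kif1bp, which encodes a binding protein of Kif1 motors and not a motor. The 24 coding bases of the loop are given 5′ to 3′ for some motors, with the last 9 bases (the 3 codons that end the motif and hold the ATP phosphates) in capitals.
Kif5c: gggcagacttcatcaGGAAAAACT
Kif17: ggccagacaggcagtGGGAAGTCT
Kif1a: gggcagacgggggccGGCAAGTCC
Kif1b: gggcagactggtgctGGGAAATCC
Kif13b: gggcagacagggtctGGAAAGTCT
Kif2a: gggcagactggaagtGGGAAAACT
Kif11: ggtcagactggcactGGAAAAACT
Kif26a: ggccacatgagcctcGGCAAATCA
These lie in coding exons on GRCm38 (mm10, GENCODE M21 annotation), at chr2:49680203-49680226 on the plus strand for Kif5c, chr4:138268984-138269007 on the plus strand for Kif17, chr1:93077739-93077762 on the minus strand for Kif1a and chr4:149274967-149274990 on the minus strand for Kif1b. The others were at chr13:106979480-106979503 on the minus strand for Kif2a and chr19:37384736-37384759 on the plus strand for Kif11. The Kif13b loop (chr14:64715471-64717487, plus strand) and the Kif26a loop (chr12:112173419-112173745, plus strand) were each interrupted by an intron. The Kif17 loop matched that of Kif5c at 13 of 24 bases. Kif26a, a divergent kinesin, matched at 11. In Kif2a the loop began 42.0% of the way along the coding sequence, against 8.77% in Kif17 and 5.42% in Kif1a, which places the Kif2a motor in the middle of the protein. Kif5a and Kif5c, among others, shared no stretch of 50 bases, the read length, with any other gene of the annotation. Between kinesins the shared stretches were few (15 between Kif4 and Kif4-ps, 8 between Kif15 and Kif18a, 2 between Kif11 and Kif18a).

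The ACC held kinesin transcripts over a wide range of levels, and neuronal cargo motors stood at the top. Kif5a, a neuronal heavy chain of conventional kinesin, had the highest level at 446 CPM per kilobase (mean of 22 mice). Its share of the summed level of the 33 genes, taken in each mouse, had a mean of 45.2% and ran from 25.8% to 65.4%. Next came Kif1a, a carrier of synaptic vesicle precursors, at 119 CPM per kilobase, and Kif5c, the second neuronal heavy chain, at 102. Kif1bp (49.7) and Kif3a (49.3), the shared motor of heterotrimeric kinesin-2, did not differ beyond their spread, and Kif5b, the ubiquitous heavy chain, stood at 39.6 CPM per kilobase. Kif21a (24.7), Kif1b (23.5) and Kif3c (19.4) overlapped across mice, but their order depended on the run of library numbers (1 to 11 or 12 to 23). In numbers 1 to 11 the 3 stood apart, with Kif21a at 19.0 to 31.0 CPM per kilobase, Kif1b at 15.6 to 18.99 and Kif3c at 8.95 to 14.9. In 12 to 23 they overlapped and the order of the means turned, with Kif1b at 28.7, Kif3c at 25.6 and Kif21a at 24.2. Kif3a was likewise above Kif1bp in the first run (58.4 against 50.5) and below it in the second (41.7 against 49.1). The 3 Kif5 genes together made up 45.3% to 78.1% of the summed level, with a median of 64.2%. The 8 mitotic genes together made up 0.118% to 0.295%. The mean was above 1 CPM per kilobase in 18 genes, and 13 of the 33 genes had a median under 100 counts per mouse.

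**Figure D1:**
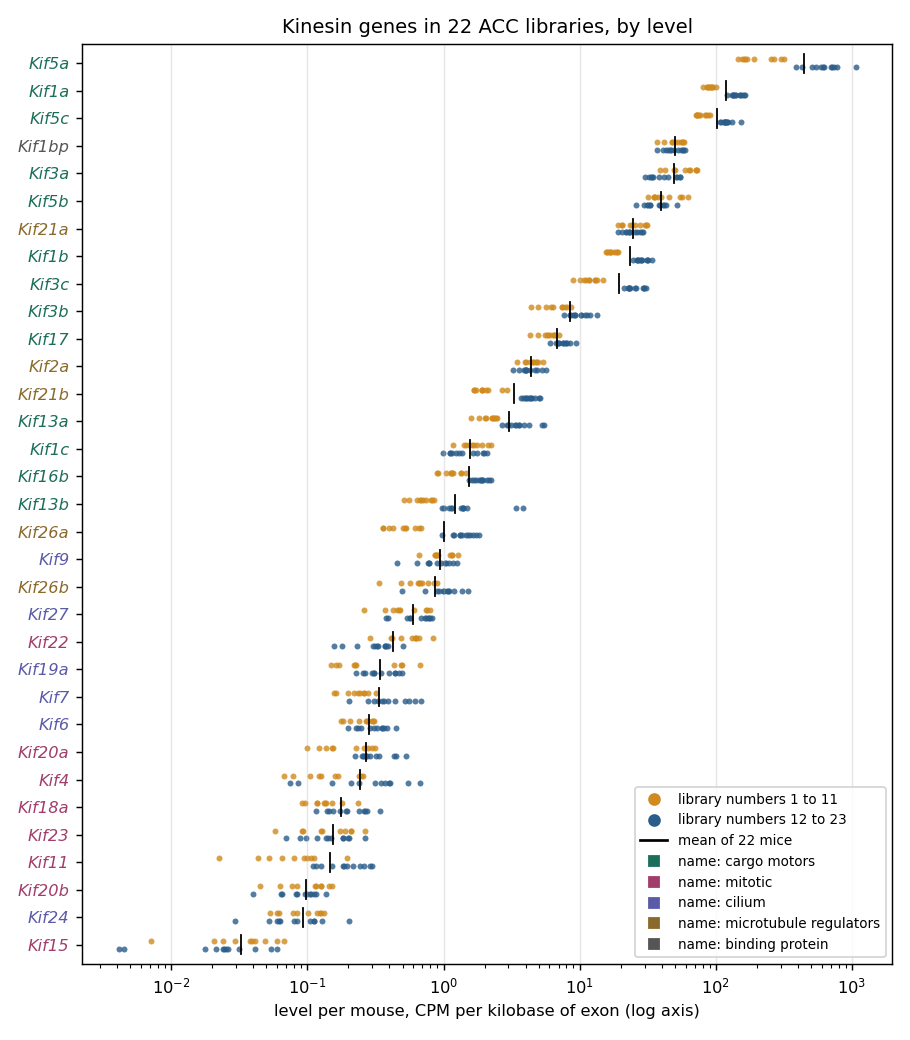
Level of each kinesin gene in each of the 22 mice as CPM per kilobase of exon on a log axis, one row per gene ordered by its mean (black bar), with point colour for the run of library numbers and name colour for the role. Kif5a stands highest at a mean of 446 CPM per kilobase and Kif15 lowest at 0.0323, and for Kif5a, Kif1a, Kif5c, Kif3c and Kif21b most or all blue points lie to the right of the orange ones.

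The 8 rows under the minimum were Kif12, Kif2b, Kif14, Kif16bos, Kif18b, Kif28, Kif2c and Kif4-ps. Kif12 and Kif2b had 0 counts in all 22 mice. Kif2c, a microtubule depolymerase of mitosis, and Kif28 were nearest to the minimum, each with 10 or more counts in 5 mice, and reached 33 and 18 counts in their highest mouse. Just inside the minimum stood Kif15, with 10 or more counts in 11 mice, a median of 9.5 counts and a range from 1 to 23. Most of these 11 mice were controls.

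No kinesin gene passed the test between stimulated and control mice after adjustment over all genes. In the edgeR quasi-likelihood test with group and library run as terms, 11 of the 33 genes were higher and 22 lower in stim. At an unadjusted p under 0.05 there were 5 (1 higher, 4 lower), or 15.2%, against 11.5% of all genes tested (6.05% higher, 5.45% lower). None had an adjusted p under 0.05 (Benjamini-Hochberg), as was the case for all 17524 genes, where the smallest adjusted p was 0.241. The smallest adjusted p of a kinesin was 0.333. The DESeq2 Wald test gave 0 of the 33 genes after adjustment as well (33 of all genes, 0.188%) and limma voom also gave 0 (1 of all genes, 0.00571%). The median log2 fold change was -0.05 over the kinesin genes and 0.01 over all genes. In no kinesin gene did the values of the groups stand fully apart, over all mice or within a run. The 95% interval of the difference lay inside a 25% change in both directions for 13 genes, among them Kif1a, Kif1b, Kif5c, Kif3c, Kif2a, Kif21a and Kif21b.

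**Figure D2:**
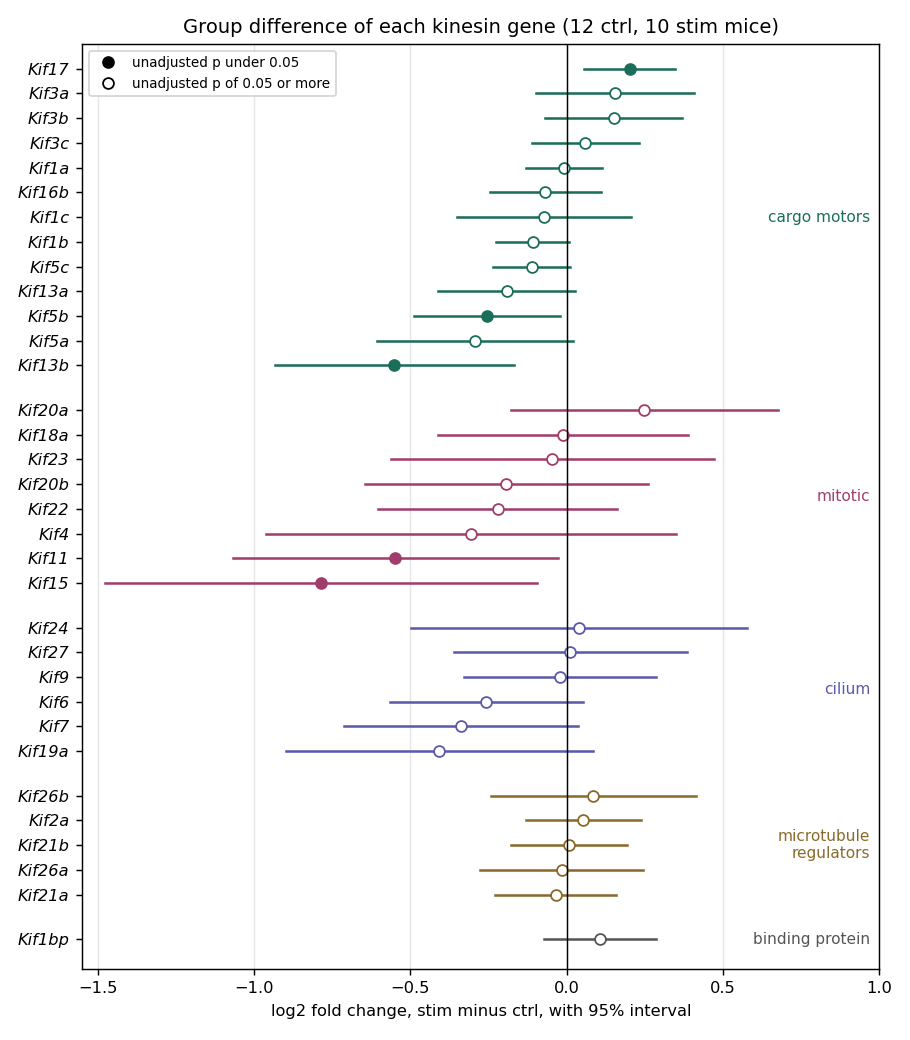
Log2 fold change (stim minus ctrl, 12 ctrl and 10 stim mice, library run as a term) of each of the 33 kinesin genes with its 95% interval, grouped by role, with filled points where the unadjusted p was under 0.05. Filled points are Kif17 to the right of 0 and Kif5b, Kif13b, Kif11 and Kif15 to the left, and the intervals of the mitotic genes are wide.

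Among the 13 cargo motors, 4 were higher and 9 lower, with 1 higher and 2 lower at an unadjusted p under 0.05 (23.1% against 11.5% of all genes). Kif17, the homodimeric kinesin-2 that carries NMDA receptor subunits into dendrites, was the 1 on the higher side. It had 19.8, 30.1 and 34.6 CPM (lowest, median and highest mouse) in ctrl and 26.6, 35.0 and 42.8 in stim. The ranges overlapped, and 7 of 10 stimulated mice stood above the control median. The log2 fold change was 0.20 (SE 0.07, p = 0.0087, adjusted p = 0.349 by edgeR), a 14.9% higher level with a 95% interval from 3.91% to 27.1%. In library numbers 1 to 11 the stimulated mice had 26.6, 29.1, 30.2 and 27.9 CPM against 19.8 to 32.1 in 6 controls, so that the highest mouse was a control (log2 fold change 0.14, p = 0.273). In numbers 12 to 23 they had 34.5 to 42.8 CPM against 27.8 to 34.6 (log2 fold change 0.22, p = 0.011, with adjusted p-values over 0.05 in both runs). All 10 stimulated mice were above the median of the controls of their own run, which held for no other kinesin gene but was not counted over all genes. With each mouse left out in turn the Kif17 p was at most 0.0204. The lowest Kif17 values were in ctrl 3, 2 and 1, at 19.8, 22.5 and 25.4 CPM. These controls of numbers 1 to 11 had the highest shares of counts from mitochondrial genes (3.04%, 4.81% and 4.41%). The part of that share in the Kif17 difference was not tested. A stretch of 74 exonic bases of Kif17 also belongs to Sh2d5 on the same strand.

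Of the Kif5 heavy chains, which pair with light chains to form conventional kinesin, all 3 were lower in stim and 1 had an unadjusted p under 0.05. Kif5b had 250, 318 and 497 CPM in ctrl and 208, 281 and 361 in stim. The ranges overlapped, with 2 of 10 stimulated mice above the control median. Its log2 fold change was -0.26 (SE 0.11, p = 0.033, adjusted p = 0.402), and the p went over 0.05 without any 1 of ctrl 1, 2, 3 or 11 or stim 3, 4, 7 or 8 (up to 0.077). The highest Kif5b values were in ctrl 2, 1 and 3 (497, 447 and 435 CPM), which had the highest shares of counts from mitochondrial genes (4.81%, 4.41% and 3.04%). Stim 1, the highest stimulated mouse for Kif5b, had the next share (2.80%). The part of that share in the Kif5b difference was not tested. Kif5a had 1018, 2868 and 7433 CPM in ctrl and 1129, 2870 and 5137 in stim, so that the medians were alike and the highest control stood apart. The log2 fold change of Kif5a with run as a term was -0.29 (SE 0.15, p = 0.064). Kif5c, which carries cargo into axons and dendrites, had 512, 735 and 1102 CPM in ctrl and 522, 775 and 850 in stim. Its log2 fold change was -0.11 (SE 0.06, p = 0.072), and the ranges again overlapped. Ctrl 11 was the highest mouse for both Kif5a and Kif5c. Without ctrl 9 and ctrl 11, the Kif5a difference was -0.19 (p = 0.216) and that of Kif5c -0.07 (p = 0.200). The unadjusted p of Kif5a was 0.042 in the edgeR fit with no count minimum and that of Kif5c 0.0491 with DESeq2. With 1 mouse left out it went under 0.05 for Kif5a in 6 cases (without ctrl 4, 5, 6 or 8 or stim 1 or 9) and for Kif5c in 4 (without ctrl 4, 5 or 6 or stim 1).

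Kif1a and Kif1b had no unadjusted p under 0.05. Kif1a had 798, 1028 and 1517 CPM in ctrl and 749, 1244 and 1494 in stim. Its log2 fold change was -0.01 (SE 0.06, p = 0.886), with a 95% interval from -8.58% to 8.10%. Kif1b, a carrier of mitochondria and synaptic vesicle precursors, had 293, 403 and 602 CPM in ctrl and 275, 446 and 562 in stim. The log2 fold change of Kif1b was -0.11 (SE 0.06, p = 0.066), with a 95% interval from -14.5% to 0.530%. The unadjusted p of Kif1b was 0.013 with limma voom (log2 fold change -0.13) and 0.0495 in the edgeR fit to genes with 10 counts in every mouse (-0.12). In both genes the stimulated median was the higher one while the difference with run as a term was below 0. The run with the higher values held 6 of 10 stimulated and 6 of 12 control mice.

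Heterotrimeric kinesin-2, made of Kif3a with Kif3b or Kif3c, had positive differences for all 3 motors, none with an unadjusted p under 0.05. Kif3a had 108, 150 and 259 CPM in ctrl and 116, 190 and 232 in stim (log2 fold change 0.15, SE 0.12, p = 0.224). For Kif3b the values were 24.8, 46.9 and 62.1 CPM in ctrl and 34.8, 48.2 and 75.3 in stim (log2 fold change 0.15, SE 0.11, p = 0.170). Kif3c had 66.3, 139 and 218 CPM in ctrl and 79.1, 164 and 226 in stim (log2 fold change 0.06, SE 0.08, p = 0.487). The ranges of the groups overlapped in each. An antisense gene shares 35.3% of the exonic bases of Kif3c, and reads of both strands cannot be told apart with this library kit.

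Kif13b, a motor of the kinesin-3 family, had the smallest unadjusted p of the 33 genes. It had 7.31, 14.1 and 49.8 CPM in ctrl and 6.68, 12.9 and 18.1 in stim. The log2 fold change was -0.55 (SE 0.19, p = 0.0064, adjusted p = 0.333), a change of -31.8% with a 95% interval from -47.6% to -11.1%. In library numbers 1 to 11 the groups lay together, at 7.31 to 10.6 CPM in ctrl and 6.68 to 11.1 in stim (log2 fold change -0.06, p = 0.707). In numbers 12 to 23 the controls had 17.5 to 49.8 CPM and the stimulated mice 12.6 to 18.1 (log2 fold change -0.96, p = 0.0017, adjusted p = 0.263). The difference between the runs had an interaction p of 0.018 (adjusted p = 0.573). Its relative Kif13a had a log2 fold change of -0.19 (SE 0.11, p = 0.083), and the remaining cargo motors, Kif1c and Kif16b, had -0.07 each.

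**Figure D3:**
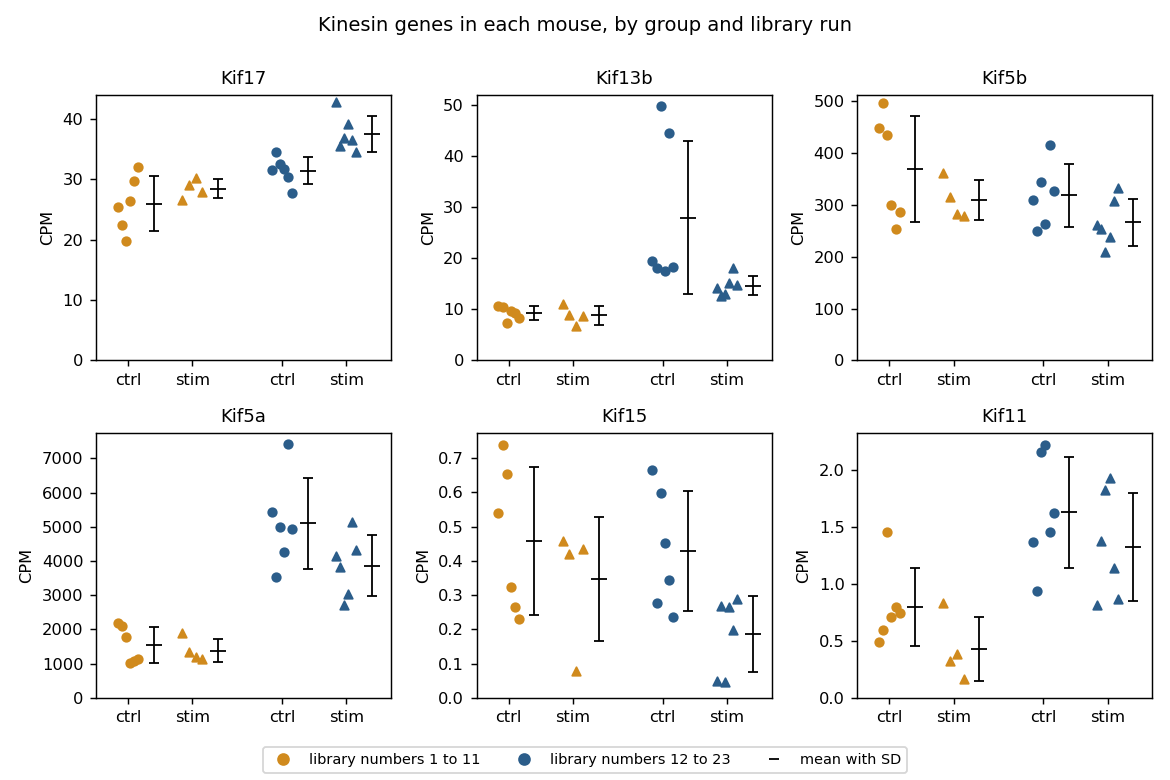
CPM of 6 kinesin genes in each mouse, with circles for ctrl and triangles for stim, in library numbers 1 to 11 (orange) and 12 to 23 (blue), and the mean with SD beside each set of points. Kif17 stimulated mice lie above the median of the controls in both runs, with a control highest among the orange points, Kif13b has 2 blue controls at 44.5 and 49.8 CPM far above the rest, and Kif5a separates by run rather than by group.

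The 2 mice with the highest Kif13b values were also the 2 with the highest oligodendrocyte markers. In bulk tissue fewer cells of a type and less RNA per cell cannot be told apart. The highest Kif13b values were in ctrl 9 (49.8 CPM) and ctrl 11 (44.5), with 19.4 in the next mouse. The summed level of 7 oligodendrocyte markers (Mbp, Mog, Mag, Mobp, Cnp, Mal and Cldn11) was likewise highest in ctrl 9, at 15056 CPM, and ctrl 11, at 11279, with 5227 in the next. Over groups the sum ran from 2433 to 15056 CPM in ctrl (median 4062) and from 1707 to 4802 in stim (median 3210), none of the 7 was at 0, and all 7 were lower in stim at an unadjusted p under 0.05 (5.45% of all genes were) and none after adjustment. Without ctrl 9 and ctrl 11 none of the 7 had an unadjusted p under 0.05 (log2 fold changes from -0.33 to -0.0034). These mice were chosen for their high marker sums, so smaller marker differences without them are partly built in. The same holds for Kif13b, which was highest in the same mice. In library numbers 1 to 11, which hold neither mouse, 5 of the 7 were higher in stim (-0.19 to 0.20, none with an unadjusted p under 0.05). Kif13a had the same 2 mice highest, at 43.9 and 43.0 CPM. Without ctrl 9 and ctrl 11 the Kif13b difference was -0.19 (p = 0.053) and that of Kif13a -0.05 (p = 0.562). In numbers 12 to 23 alone the Kif13b difference without them was -0.35 (p = 0.0088, adjusted p = 0.940), and its interaction p was 0.173. The Kif17 difference was 0.20 (p = 0.019) without them, as large as with all mice. Without the 2 mice, 1 of the 33 genes (Kif17) had an unadjusted p under 0.05, or 3.03% against 8.16% of all genes (4.75% higher, 3.41% lower), and the 4 lower genes were past it no longer. Of these 4, Kif11 and Kif15 kept most of their difference without the 2 mice, at -0.53 (p = 0.068) against -0.55 and -0.70 (p = 0.063) against -0.79. Kif5b went from -0.26 to -0.17 (p = 0.138), and the Kif13b difference shrank most. Whether oligodendrocyte content accounts for the Kif13b difference was not tested.

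**Figure D4:**
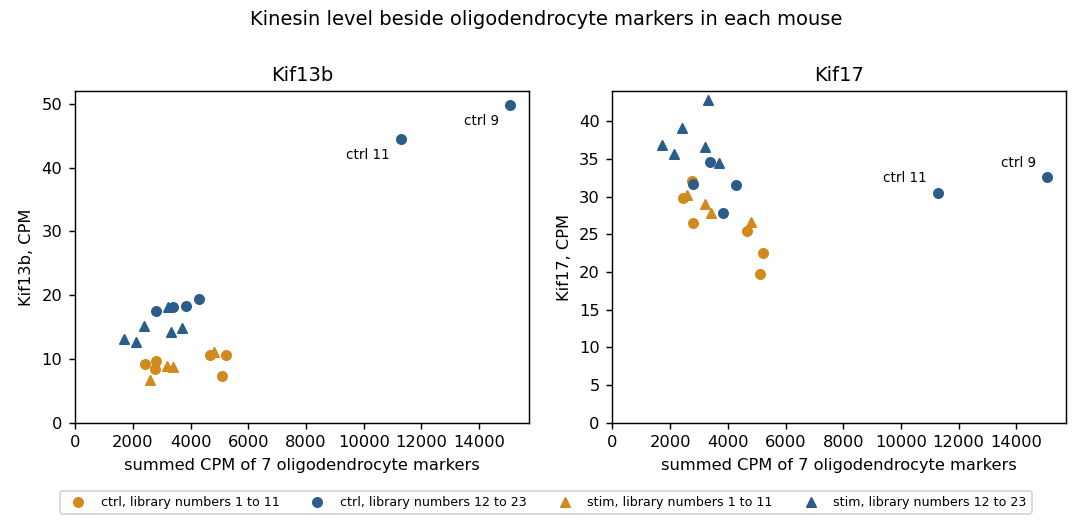
CPM of Kif13b (left) and Kif17 (right) in each mouse against the summed CPM of 7 oligodendrocyte markers, with circles for ctrl, triangles for stim and colour for the run of library numbers. Ctrl 9 and ctrl 11 stand apart on both axes for Kif13b, while for Kif17 they lie at 32.5 and 30.4 CPM among the other controls.

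The 8 mitotic kinesins were low, and 7 of them were lower in stim, 2 with an unadjusted p under 0.05 (5.45% of all genes were lower at such a p). Kif15, a spindle motor, had 0.229, 0.399 and 0.739 CPM in ctrl and 0.0456, 0.267 and 0.457 in stim, from 1 to 23 counts per mouse. Its log2 fold change was -0.79 (SE 0.33, p = 0.027, adjusted p = 0.385), and the p went over 0.05 without ctrl 7, ctrl 9, stim 3 or stim 5 (up to 0.054). Kif15 met the count minimum mainly through the controls, where it was higher, so its place among the lower genes is not independent of that minimum. Kif11, the motor that pushes spindle poles apart, had 0.485, 1.15 and 2.22 CPM in ctrl and 0.169, 0.847 and 1.93 in stim. Its log2 fold change was -0.55 (SE 0.25, p = 0.039, adjusted p = 0.414), and the p went over 0.05 without ctrl 3, 9 or 10 or stim 2, 3, 4, 5, 9 or 10 (up to 0.085). Groups overlapped in both genes, and 3 of 10 stimulated mice stood above the control median in each. Kif20a, a motor of cytokinesis, was the 1 mitotic gene on the higher side, with 0.431, 1.09 and 1.93 CPM in ctrl and 0.530, 1.15 and 2.28 in stim (log2 fold change 0.25, SE 0.21, p = 0.243). A neighbour on the other strand, Cdc23, shares 29.3% of the exonic bases of Kif20a and had a median of 2151 counts, so the Kif20a value is uncertain. Kif22, which moves chromosome arms, had the highest level per kilobase of the role, with 0.881, 2.04 and 4.08 CPM in ctrl and 0.767, 1.68 and 3.23 in stim (log2 fold change -0.22, SE 0.19, p = 0.245). The other 4 (Kif4, Kif18a, Kif20b and Kif23) had log2 fold changes from -0.31 to -0.01, and Pdzd11 on the other strand shares 15.1% of the exonic bases of Kif4. Of 5 markers of dividing cells (Mki67, Top2a, Cdk1, Ccnb1 and Birc5) 4 passed the minimum and none had an unadjusted p under 0.05. Their summed level was 1.33 to 6.82 CPM in ctrl and 1.49 to 3.57 in stim, and the part of such cells in these differences was not tested. At these counts the SE of the mitotic genes reached 0.33, and none of the 8 intervals lay inside a 25% change in both directions.

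The 6 kinesins of cilia had none at an unadjusted p under 0.05, with 2 higher and 4 lower. Kif9, a motor of motile cilia, had the highest level of the role per kilobase. It had 1.95, 4.21 and 5.39 CPM in ctrl and 2.76, 3.80 and 5.50 in stim (log2 fold change -0.02, SE 0.15, p = 0.884). Kif7, which sits at the tip of primary cilia in hedgehog signalling, had 0.743, 1.38 and 3.13 CPM in ctrl and 0.723, 1.27 and 2.56 in stim (log2 fold change -0.34, SE 0.18, p = 0.073). An antisense gene with a median of 54 counts shares 19.1% of the exonic bases of Kif7. The other 4 (Kif19a, Kif24, Kif27 and Kif6) ran from -0.41 to 0.04. Of 5 markers of ependyma and cilia 3 were tested, and 1 of these had an unadjusted p under 0.05. Foxj1 had a log2 fold change of -0.82 (p = 0.023), Rarres2 of -0.08 (p = 0.670) and Dynlrb2 of 0.23 (p = 0.269). The summed level of the 5 was highest in ctrl 9, at 13.0 CPM against 7.20 in the next mouse, and without ctrl 9 and ctrl 11 the Foxj1 value was -0.23 (p = 0.398).

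The 5 regulators of microtubule ends and dynamics had small differences, none with an unadjusted p under 0.05. Kif2a, which takes tubulin off microtubule ends and prunes axon branches, had 22.8, 26.8 and 34.3 CPM in ctrl and 20.8, 29.1 and 36.0 in stim (log2 fold change 0.05, SE 0.09, p = 0.556). Dimt1 on the other strand shares 19.2% of its exonic bases. Kif21a, which limits microtubule growth in axons and had the highest level of the role per kilobase, had 123, 153 and 201 CPM in ctrl and 124, 158 and 186 in stim (log2 fold change -0.04, SE 0.09, p = 0.709). Kif21b, its relative in dendrites, had 20.4, 41.1 and 62.0 CPM in ctrl and 23.3, 45.9 and 57.7 in stim (log2 fold change 0.01, SE 0.09, p = 0.938). The Kif21b difference was 0.23 (p = 0.155) in library numbers 1 to 11 and -0.19 (p = 0.035) in 12 to 23, with an interaction p of 0.039 (adjusted p = 0.607). Kif26a and Kif26b had log2 fold changes of -0.02 and 0.09. Kif1bp, outside the motors, had 181, 235 and 287 CPM in ctrl and 211, 258 and 289 in stim (log2 fold change 0.11, SE 0.09, p = 0.231).

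The run of library numbers went with larger differences in kinesin levels than stimulation did. The labels number the libraries, and the numbers fall into 1 to 11 (6 ctrl, 4 stim) and 12 to 23 (6 ctrl, 6 stim). The labels do not say what the runs were, and the study describes 2 cohorts of mice. Between the runs 20 of the 33 genes differed at an adjusted p under 0.05 (18 higher and 2 lower in 12 to 23), or 60.6% against 68.1% of all genes tested (33.7% higher, 34.3% lower). The median log2 difference was 0.56 over the kinesin genes and -0.03 over all genes. For 27 of the 33 genes the run difference was larger than the group difference. The same count was not made over all genes, so it does not set the kinesins apart from them. Kif5a differed most, by 1.61 (SE 0.16), followed by Kif26a at 1.49, Kif11 at 1.28, Kif13b at 1.21, then Kif3c and, at 1.07, Kif21b. Kif22 (-0.78) and Kif3a (-0.51) were the 2 lower genes. The share of counts from mitochondrial genes was 1.63% to 4.81% in numbers 1 to 11 and 0.982% to 1.90% in 12 to 23. Its part in the kinesin difference was not tested.

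The composition of the Kif3 family, and of the Kif5 family for Kif5a and Kif5b, stood apart by run, while the groups overlapped. The ratio of Kif3a to Kif3b per kilobase was 7.38 to 9.73 in library numbers 1 to 11 and 3.54 to 4.66 in 12 to 23, with no overlap. Within 1 to 11 it was 8.99 ± 0.400 (SD, n = 6) in ctrl and 8.37 ± 0.839 (n = 4) in stim, and within 12 to 23 it was 3.99 ± 0.514 (n = 6) and 4.30 ± 0.301 (n = 6). The ratio of Kif3a to Kif3c was 4.17 to 5.50 in the first run and 1.30 to 1.83 in the second. Kif5a made up 56.9% to 68.3% of the Kif5 transcripts per kilobase in the first run and 74.1% to 83.7% in the second, and Kif5b 11.4% to 14.7% and 4.09% to 5.35%. The Kif5c share, from 19.5% to 28.4% and from 12.2% to 21.0%, overlapped between the runs, as did the ratio of Kif1a to Kif1b, from 4.51 to 5.96 and from 4.17 to 6.09. By group the Kif5a share ran from 56.9% to 83.7% in ctrl and from 59.0% to 82.4% in stim. No test was made of these ratios, which were chosen after the values were seen.

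**Figure D5:**
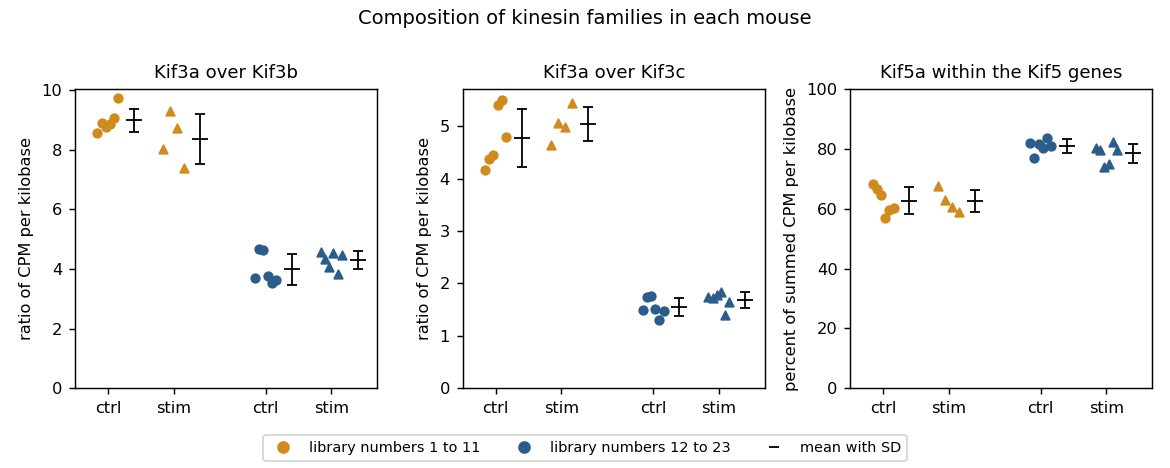
Ratio of Kif3a to Kif3b, ratio of Kif3a to Kif3c, and Kif5a as a percent of the 3 Kif5 genes, each from CPM per kilobase, in every mouse by group (circles ctrl, triangles stim) and run of library numbers (colour), with the mean and SD. The orange and blue points do not overlap in any panel (7.38 to 9.73 against 3.54 to 4.66 on the left), while ctrl and stim of 1 run do.

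By run, the group difference had the same sign in numbers 1 to 11 and 12 to 23 for 21 of the 33 genes and the opposite sign for 12. Agreement of sign was not counted over all genes, so whether the kinesins differ from them in this is not known. Within 1 to 11, 1 kinesin had an unadjusted p under 0.05 (Kif24, log2 fold change 0.66, p = 0.043), or 3.03% against 5.56% of all genes (2.21% higher, 3.34% lower). Within 12 to 23 there were 9 (1 higher, 8 lower), or 27.3% against 12.4% of all genes (4.06% higher, 8.3% lower), none with an adjusted p under 0.05. Ctrl 9 and ctrl 11 are both in this run. Without them 3 of the 9 were past it in 12 to 23 (Kif17 higher, Kif13b and Kif15 lower), or 9.09% against 4.99% of all genes (1.4% higher, 3.59% lower). The interaction of group and run had an unadjusted p under 0.05 for 3 kinesins (Kif13b, Kif24 and Kif21b), or 9.09% against 8.01% of all genes, and for none after adjustment. Without the 2 mice it was under 0.05 for 2 (Kif24 and Kif21b), or 6.06% against 3.97% of all genes. With group as the only term 3 kinesins were past it (Kif17 higher, Kif15 and Kif5b lower), or 9.09% against 3.61% of all genes (0.999% higher, 2.61% lower).

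The partners of kinesins were followed as lists. Of 52 partner genes tested outside the 33, 37 were higher and 15 lower in stim, with 3 higher and 2 lower at an unadjusted p under 0.05 (9.62% against 11.5% of all genes) and none after adjustment. Their median log2 fold change was 0.05. The 5 light chain and kinesin-associated protein genes had none, and Klc1, the main neuronal light chain, had a log2 fold change of 0.11 (p = 0.221). Of 19 cargo adaptors, which count Kif1bp from the 33 as well, Trak2, which links Kif5 to mitochondria, was lower (67.8, 127 and 223 CPM in ctrl, 67.8, 147 and 170 in stim, log2 fold change -0.17, SE 0.06, p = 0.016), and Flot2, a membrane scaffold, was higher (149, 174 and 206 CPM in ctrl, 171, 185 and 200 in stim, log2 fold change 0.11, SE 0.05, p = 0.030). Kif17, Kif5c, Trak2 and Flot2 stood in a dendritic transport term that the study drew from these same libraries, so their values here are not independent evidence of a direction. The 3 Kifc genes, motors that walk the other way, had none. Of 26 genes of dynein and dynactin, the machinery of transport toward the cell body, 21 were higher and 5 lower, with Dynlrb1 (log2 fold change 0.16, p = 0.0070) and Dctn2 (0.17, p = 0.025) higher and Dync1li2 (-0.19, p = 0.017) lower at an unadjusted p under 0.05. All groups overlapped in these 5 genes, and without ctrl 9 and ctrl 11 Dynlrb1 was the 1 still past it (0.16, p = 0.013). Without these mice Dctn2 was at 0.16 (p = 0.054) and Flot2 at 0.09 (p = 0.077), close to their values with all mice, while Trak2 went to -0.10 (p = 0.097) and Dync1li2 to -0.13 (p = 0.104).

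The other cell type markers held no regional one, so they do not place the tissue in the ACC. Neuron markers (Snap25, Syt1, Rbfox3, Nefl and Stmn2) summed to 5713 to 8995 CPM in ctrl and 6065 to 9557 in stim. Since levels differed between the runs, ratios of the stim to the ctrl mean of each summed list were taken within library numbers 1 to 11 and within 12 to 23. They were 0.994 and 1.09 for neuron markers, 0.979 and 1.09 for excitatory neuron, 1.05 and 1.03 for inhibitory neuron, 0.882 and 0.936 for astrocyte, 0.990 and 1.04 for microglia, 0.893 and 0.999 for endothelium and 0.939 and 0.927 for oligodendrocyte progenitor markers. Oligodendrocyte markers had 0.914 and 0.405, and 0.768 in 12 to 23 without ctrl 9 and ctrl 11. Markers of ependyma and cilia had 1.09 and 0.640 (0.985 without the 2 mice), and those of dividing cells 0.909 and 0.675 (0.908 without them). Choroid plexus markers had 0.417 and 0.361, and 1.30 in 1 to 11 without ctrl 3, the mouse with the highest sum (134 CPM). In 12 to 23 their sum was 12.3 to 48.5 CPM in ctrl and 5.25 to 11.2 in stim, with no overlap, and the ratio was 0.372 without ctrl 9 and ctrl 11. Single markers past an unadjusted p of 0.05 over all mice were, beside those already named, Stmn2 (log2 fold change 0.24, p = 0.011) and Nefl (-0.14, p = 0.022) of 5 neuron markers, Slc17a7 (0.16, p = 0.018) of 3 excitatory and Slc32a1 (0.31, p = 0.0051) of 3 inhibitory neuron markers, and Ttr (-1.88, p = 0.0016) and Clic6 (-1.17, p = 0.0053) of 3 choroid plexus markers tested, none after adjustment by edgeR. Of all genes, 11.5% were past it. Without ctrl 9 and ctrl 11, Nefl (-0.10, p = 0.102) and Slc17a7 (0.12, p = 0.071) were past it no longer, while Stmn2, Slc32a1, Ttr and Clic6 still were. The part of neuron and choroid plexus content in the kinesin differences was not tested.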

How the data were processed

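Bulk ACC RNA of 22 mice was measured by SMARTSeq v4 cDNA amplification and sequencing. The authors deposited 1 table of raw counts per gene, which they made with cutadapt 1.10, STAR 2.5.3a on mm10 and HTSeq 0.6.1p1 on an Ensembl annotation (the strand setting is not given in the sources used here). The same table holds a deposited signal of counts divided by size factors (DESeq2 1.22.1), which was not used in a test, and the authors' own fold changes and p-values, which were not used. Groups, replicate numbers and library numbers came from the labels. The members and gene lists were chosen with earlier results of these data known.

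Genes that reached 10 counts in 10 or more mice were tested in R 4.3.3 with edgeR 4.0.16 (TMM, quasi-likelihood test, two-sided), with group and run of library numbers (1 to 11, 12 to 23) as terms and Benjamini-Hochberg adjustment over 17524 genes. The study's model held batch and RNA integrity, neither of which is a label, so the run stood in for the batch. SE and 95% intervals are on the log2 scale. Alternatives were DESeq2 1.42.0 (size factors, Wald test), voom weighted by sample quality (limma 3.58.1), all genes with a count, 10 counts in every mouse, group as the only term, a replicate block, each run alone and each mouse left out. Leaving out ctrl 9 and ctrl 11 together, over all mice, within numbers 12 to 23 and in the interaction of group and run, was chosen after seeing the data. The smallest chi-square per gene between any 2 libraries (231 pairs) was 10.0, so no library repeated another. The tests were tested on simulated data. CPM used TMM-scaled library sizes, and lengths, positions and coding sequences came from GENCODE M21 on GRCm38 (37772 of 37786 gene IDs matched). Values are given in full for 15 listed kinesins, for the 6 higher and 6 lower genes of smallest p, and for the highest level per kilobase in each role. Genes with few counts per mouse are the least precise. A listed marker and some loop sequences are not reported here.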

Additional observations from a re-analysis of the deposited data

Results flagged for a closer look

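Over the 33 kinesin genes, 1 value stood apart within the 10 stimulated mice by Dixon's criterion. Kif20a in stim 4 was at 0.530 CPM, below the next value of 1.09 and the group's median of 1.15, with a gap of 0.493 of the group's range on the log2 scale, where the criterion was applied, against a critical value of 0.466. On the CPM scale the gap was 0.319 of the range, and no kinesin passed the criterion. The test flags about 1 in 20 groups by chance, and the 12 controls were not examined with it. Kif20a shares 29.3% of its exonic bases with Cdc23 on the other strand.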

How the results depend on the processing

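No kinesin had an adjusted p under 0.05 under any alternative (smallest 0.132 among the 20 described in full). Of 198 log2 fold changes of these 20 under the alternatives other than 1 mouse left out, 187 kept their direction and 11 reversed, all near 0 or in the replicate block or 1 run. The replicate block also takes in part of the difference between the runs (below). Kif1a was 0.058 with group as the only term. Kif21b was -0.021 with voom, -0.0040 with 10 counts in every mouse and -0.19 in library numbers 12 to 23 alone. Kif2a was -0.035 and Kif3c -0.0058 in numbers 1 to 11 alone, and Kif9 was 0.027 with voom. With 1 mouse left out, Kif1a ran from -0.032 to 0.012, Kif21b from -0.071 to 0.049 and Kif9 from -0.093 to 0.037.

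Kinesins lower at an unadjusted p under 0.05 numbered 4, but 2 with group as the only term, 0 in numbers 1 to 11, 8 in numbers 12 to 23, 2 in 12 to 23 without ctrl 9 and ctrl 11, 0 without ctrl 9 and ctrl 11 (where Kif11 at -0.53 and Kif15 at -0.70 kept most of their difference), and 2 (without ctrl 3 or stim 3) to 8 (without ctrl 5) with 1 mouse left out, against 5.26%, 4.23% and 6.46% of all genes lower. Higher partner genes numbered 3 (6.05% of all genes were higher), but 0 with group as the only term (0.999%), 0 in numbers 1 to 11 (2.21%) and 1 without ctrl 9 and ctrl 11 (4.75%). In this last fit Dctn2 at 0.16 and Flot2 at 0.09 kept most of their difference. With voom they numbered 7, for which the share of all genes is not given here. They numbered 2 to 8 with 1 mouse left out, where 8.91% to 14.2% of all genes were past it in either direction. Lower partner genes numbered 2 (5.45% of all genes were lower), but 0 with group as the only term (2.61%) and 0 without ctrl 9 and ctrl 11 (3.41%), and 2 to 4 with 1 mouse left out. The cause was not tested.

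Replicate numbers did not pair the mice: same-numbered deviations correlated from -0.37 to 0.63, and 2 of 10 stimulated mice correlated best with their own number. The negative correlations, -0.30 and -0.37, were those of numbers 5 and 6. In these the control was in the first run of library numbers and the stimulated mouse in the second. The replicate block thus took part of the run difference into its group difference. It also left out ctrl 11 and ctrl 12, which had no stimulated mouse of their number. Its changes from the main fit therefore do not show an effect of pairing alone. With the replicate block over 10 pairs, 2 kinesins were higher (Kif17 and Kif3b) and 3 lower (Kif15, Kif5b and Kif22) at an unadjusted p under 0.05 (7.37% of all genes were past it), Kif13b (-0.18, p = 0.288) and Kif11 (-0.35, p = 0.310) were past it no longer, Kif3b (0.25, p = 0.022) and Kif22 (-0.44, p = 0.030) were newly past it, 0 partner genes were lower, and Kif1a was at 0.14, Kif1b at 0.048, Kif5a at 0.093 and Kif5c at 0.046.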
